A study of Asparagus officinalis with 3 samples.

Results

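The miR160 family and the candidate miRNAs that share its hairpin were followed in male and female garden asparagus (Asparagus officinalis), a dioecious vegetable crop. The 8 sequences described here are the 4 rows that the deposited table assigns to the miR160 family (aof-miR160a, aof-miR160b, aof-miR160c and aof-miR160d) and 4 rows listed as candidates without a family (aof-miRn20, aof-miRn25, aof-miRn28 and aof-miRn33), whose sequences lie in the hairpin of aof-miR160d. The table holds 194 miRNAs in all. Leaves, roots, stems and flowers of 3-year-old greenhouse plants of the cultivar Grand were collected, the RNA of the organs was mixed in equal amounts, and 1 small RNA library was sequenced for the female plants and 1 for the male plants. A degradome library from a mixture of both sexes was also made, but its reads were not analysed here. As each library is a pool of plants and organs, a difference between the libraries cannot be assigned to an organ, and no variation between plants can be estimated. Fewer expressing cells and less small RNA per cell cannot be told apart either. No p-value is therefore given for any comparison of the sexes.

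MiR160 is among the most conserved plant miRNA families. In Arabidopsis it pairs with the mRNAs of the auxin response factors ARF10, ARF16 and ARF17, which repress auxin-responsive genes, and it thereby acts in root cap, leaf and flower development. Its hairpin precursor is cut by DCL1 into a duplex whose strands each overhang by 2 nt at the 3′ end, one strand being the mature miRNA and the other the miRNA star. In Arabidopsis the first base of a small RNA influences its Argonaute partner, and a 5′ U is favoured by AGO1, the slicer of most miRNAs.

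The sequences are shown because the forms of miR160 differ mainly in where they begin. Capitals mark bases 2 to 8, the seed.
aof-miRn28: gUGCCUGGuucccuguaugcc
aof-miR160d: uGCCUGGUucccuguaugcca
aof-miR160b: uGCCUGGUucccuguaugcc
aof-miR160a: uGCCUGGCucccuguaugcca
aof-miRn20: cCUGGUUCccuguaugccacc
aof-miRn25: cUGGUUCCcuguaugccaccc
aof-miRn33: uGGCGUGCauggaaucaagca
aof-miR160c: gCGUGCGAggagccaagcaua
Aof-miR160b and aof-miR160d share a seed, and the other 6 sequences each have their own, which makes 7 seeds among the 8 sequences. Aof-miRn28 is aof-miR160b with a further G at the 5′ end, and aof-miR160d is aof-miR160b with a further A at the 3′ end. Aof-miR160a differs from aof-miR160d by U8C, counted from the 5′ end with the base of aof-miR160d first, a difference that lies within the seed. The rice precursor printed below carries the base of aof-miR160a there.

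Of the 8 sequences, 6 were found base for base in the hairpin that the supplementary tables list for the unigene UN21911, an assembled transcript. This hairpin is printed 5′ to 3′ with aof-miR160d (left) and aof-miRn33 (right) in capitals, as the pair that shows both arms.
UN21911 hairpin: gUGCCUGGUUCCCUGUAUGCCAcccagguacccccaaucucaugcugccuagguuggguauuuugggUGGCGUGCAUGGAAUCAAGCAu
It is 89 nt long and takes up bases 246 to 334 of the plus strand of the unigene. No genome was used, so the chromosome and the surrounding gene model are not given here. Folded again with RNAfold, it had a free energy of -50.1 kcal/mol with 34 base pairs. On the 5′ arm, aof-miRn28 began at base 246, aof-miR160d and aof-miR160b at base 247, aof-miRn20 at base 249 and aof-miRn25 at base 250. Aof-miRn33 lay on the 3′ arm at bases 313 to 333.

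**Figure D1:**
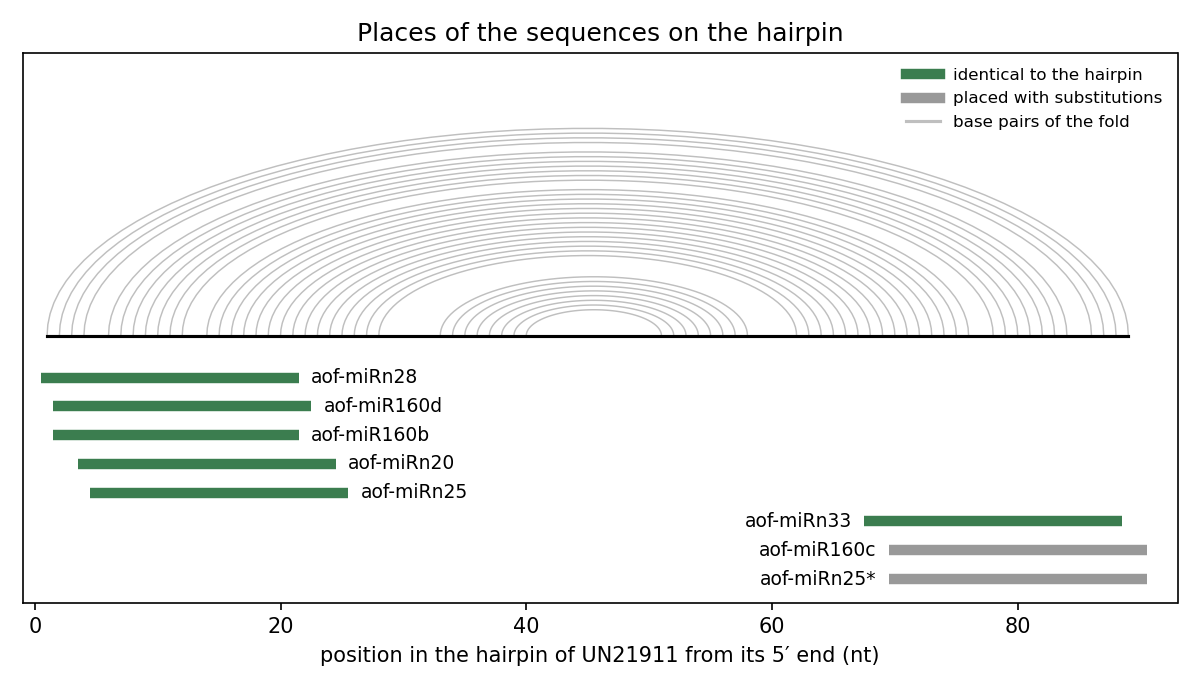
Places of the sequences along the hairpin of UN21911, with the position in nt from the 5′ end of the listed hairpin on the x axis. Arcs are the 34 base pairs of the fold, green bars are sequences identical to the hairpin, and grey bars are sequences placed with substitutions. All 5 green bars on the left begin within 5 nt, and aof-miRn33 lies opposite on the right.

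The arms fit together in different ways on this fold. Aof-miRn20 and aof-miRn33 formed a duplex in which each strand overhung the other by 2 nt at its 3′ end. Aof-miR160d and aof-miRn33 ended flush, with overhangs of 0 nt. A star of aof-miR160d with 2-nt overhangs would begin at base 70 of the hairpin and run 1 nt past its listed end. Aof-miR160c was placed there best, as was aof-miRn25*, a table entry outside the 8 sequences that differs from the hairpin by U13C alone over the 20 bases compared.

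Aof-miR160c matched UN21911 less closely. Over the 20 bases that could be compared it carried A7G, U8A, A12G and U13C, with the base of the hairpin first and positions counted from the 5′ end of aof-miR160c. Against the precursor of aof-miR160a, which the supplementary tables take from rice, it carried A7G and C8A over 19 bases. The rice precursor is shown with aof-miR160a in capitals, since no asparagus precursor of that sequence was at hand.
Rice precursor: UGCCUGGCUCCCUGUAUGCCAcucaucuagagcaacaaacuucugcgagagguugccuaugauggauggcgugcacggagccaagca
Thus aof-miR160a and aof-miR160c were not found in the asparagus hairpin, and the 6 others were.

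Values are RPM, reads scaled to the size of the library with no correction for length, and carry the name TPM that the deposited table uses. Low values rise in even steps of 0.229 TPM on the female side and 0.157 TPM on the male side. A step of 1 read would imply library totals that differ from the read totals the study states, so what a step stands for was not settled. If 1 step is 1 read, each value of the 8 sequences stands for a whole number of reads, from 25 to 3193 on the female side and from 5 to 4748 on the male side. On that reading exact 95% intervals are given, which cover counting error only and hold no variation between plants or library preparations.

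Aof-miRn28, which is listed as a candidate, was by far the most abundant of the 8 sequences. It had 730.1 TPM on the female side and 745 TPM on the male side, and ranked 10th and 11th among the 194 miRNAs. The libraries were close for this form, with a female to male ratio of 0.98 (interval 0.937 to 1.03).

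Aof-miR160d, the 21-nt form with a 5′ U, had 114.55 TPM on the female side and 51.1 TPM on the male side. It was thus 2.24-fold higher in the female library (interval 1.94 to 2.58), which lies apart from the interval of aof-miRn28. The study also measured aof-miR160d by qRT-PCR in flower buds and reports higher levels in female than in male ones. Those samples are not the pooled libraries compared here. Aof-miR160b, which is 1 nt shorter, had 11.9 TPM and 5.96 TPM. Its ratio of 1.99 (1.29 to 3.11) was just under 2-fold, the size by which the methods screened miRNAs. The study nevertheless lists aof-miR160b among its differentially expressed miRNAs. Aof-miR160a, whose seed is that of the rice precursor and differs from that of aof-miR160d, had 21.95 TPM on the female side. It had 8.47 TPM on the male side, a ratio of 2.59 (1.84 to 3.69). The forms that begin with UGCCUGG were higher in the female library by similar factors, and their intervals overlap.

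The forms that begin further into the hairpin lay between. Aof-miRn20 had 27.4 TPM on the female side and 18.5 TPM on the male side, a ratio of 1.48 (1.14 to 1.93). Aof-miRn25 had 25.4 TPM and 17.3 TPM, a ratio of 1.47 (1.12 to 1.93). These neighbouring forms differed from each other by less than their counting error in both libraries, with aof-miRn20 at 1.08 times aof-miRn25 in the female library (0.828 to 1.41) and 1.07 times in the male library (0.82 to 1.40).

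Aof-miRn33, on the 3′ arm, and aof-miR160c, placed there only with substitutions, were rare. Aof-miRn33 had 13.7 TPM on the female side and 5.8 TPM on the male side, a ratio of 2.37 (1.54 to 3.66). Aof-miR160c had 5.72 TPM and 0.78 TPM, which are 25 and 5 reads if a step is a read. Every listed sequence reaches 5.02 TPM in at least 1 library. Aof-miR160c did so only in the female library, and such a listing favours a high ratio. Its ratio of 7.33 was the highest of the 8, but the interval ran from 2.74 to 24.4. This interval overlaps those of aof-miR160a and aof-miRn33 and lies above that of aof-miR160d.

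**Figure D2:**
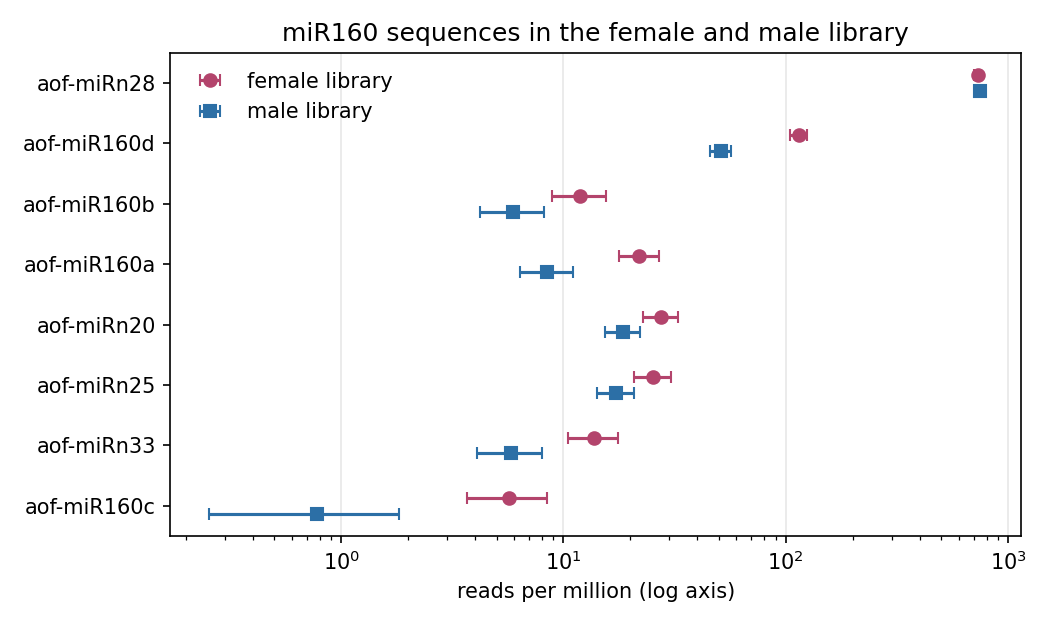
Deposited values of the 8 sequences, in TPM on a log axis, with circles for the female and squares for the male library; bars are exact 95% intervals for counting error, if a step is a read. Aof-miRn28 lies near 730.1 and 745 TPM with both symbols together, while the female symbol lies to the right for the 7 others.

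In order of level the 8 sequences were arranged almost alike in both libraries, from aof-miRn28 and aof-miR160d through aof-miRn20, aof-miRn25 and aof-miR160a down to aof-miR160c. The order differed only for aof-miR160b and aof-miRn33, whose counting intervals overlapped in each library. Aof-miR160a and aof-miRn25 were neighbours in both, with overlapping intervals in the female library (17.8 to 26.8 TPM and 20.9 to 30.6 TPM) and separate ones in the male library (6.36 to 11.05 TPM and 14.2 to 20.8 TPM).

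Of the 8 sequences, 7 were higher in the female library, against 57.7% of all listed miRNAs. The 4 sequences aof-miR160a, aof-miR160c, aof-miR160d and aof-miRn33 were over 2-fold higher there, against 18.0% of all listed miRNAs. Of these, aof-miR160c was listed through its female value alone, so its direction is no independent observation. The male library was over 2-fold higher for 0 of the 8, against 12.9% of all listed miRNAs, so 4 of 8 were over 2-fold apart in either direction, against 30.9%. The median log2 ratio of the 8 was 1.08, and that of the 193 miRNAs with a value in both libraries was 0.18. Relative to that median the log2 ratio was 2.70 for aof-miR160c, 1.20 for aof-miR160a, 1.07 for aof-miRn33 and 0.99 for aof-miR160d, which then falls just under 2-fold. Aof-miRn28 lay at -0.03 by the deposited values and at -0.21 relative to the median. The 8 sequences overlap or come from related hairpins, so they are not independent observations of the sexes.

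**Figure D3:**
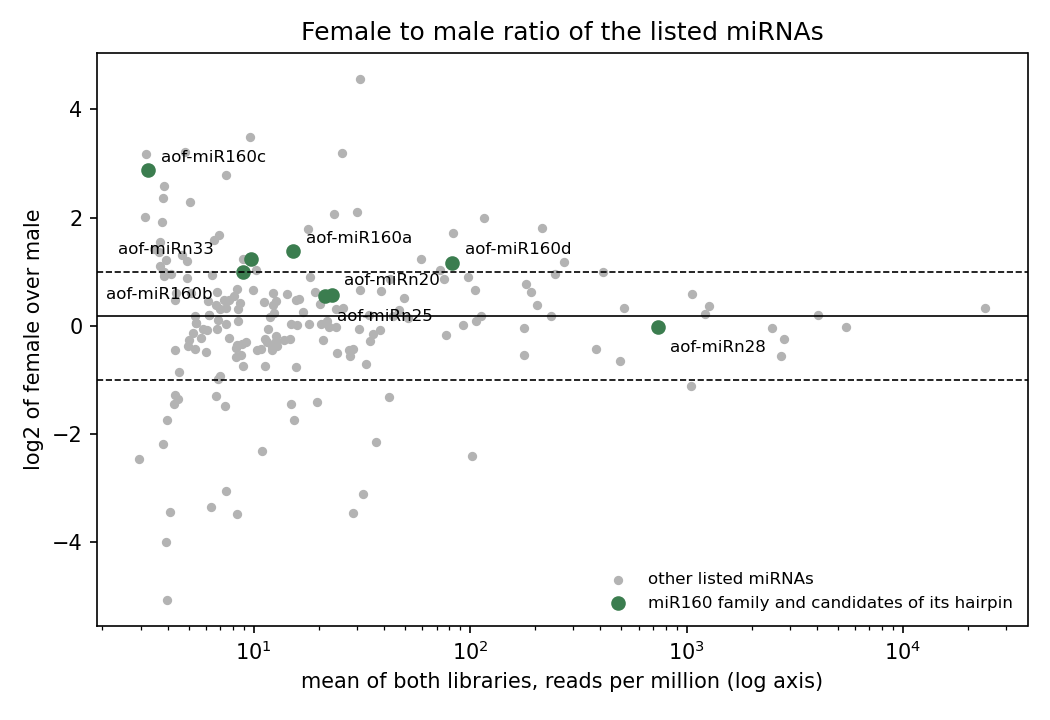
Log2 of the female over the male value (y axis) against the mean of both libraries in TPM (x axis, log) for the 193 miRNAs with a value in both. The solid line is the median of 0.18, dashed lines mark 2-fold, and the 8 sequences are named in green. Aof-miRn28 lies at -0.03, below the median, and the 7 others lie above it.

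Summed by name, the miR160 family held 154 TPM on the female side and 66.35 TPM on the male side, a log2 ratio of 1.22 (1.04 to 1.39 by counting error). The 4 candidates summed to 797 TPM and 786 TPM, a log2 ratio of 0.02 (-0.044 to 0.08), which is below the median of 0.18 of all listed miRNAs. The 5 sequences on the 5′ arm of UN21911 summed to 909 TPM and 838 TPM. Their log2 ratio of 0.12 became -0.058 relative to the median, so the arm as a whole has no direction that holds across scalings. Without aof-miRn28 the same arm had 179 TPM and 92.9 TPM, a log2 ratio of 0.95. Hence the difference between the libraries depends on which ends are counted as miR160.

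This is best seen in the make-up of the arm, which does not depend on the scaling of the libraries. The arm here means the listed sequences that match it. As no genome was used, reads of the same sequences from other loci cannot be told apart from those of UN21911. Aof-miRn28 made up 80.3% of the arm in the female library (exact interval 79.0 to 81.5%) and 88.9% in the male library (88.04 to 89.7%). The forms that begin at base 247, aof-miR160d and aof-miR160b, made up 13.9% (12.8 to 15.02%) and 6.82% (6.15 to 7.53%). Both pairs of intervals lie apart. Aof-miRn20 made up 3.02% in the female and 2.21% in the male library, and aof-miRn25 2.79% and 2.06%. For these 2 forms the intervals overlapped, at 2.51 to 3.60% and 1.83 to 2.64% for aof-miRn20 and at 2.30 to 3.35% and 1.70 to 2.48% for aof-miRn25.

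**Figure D4:**
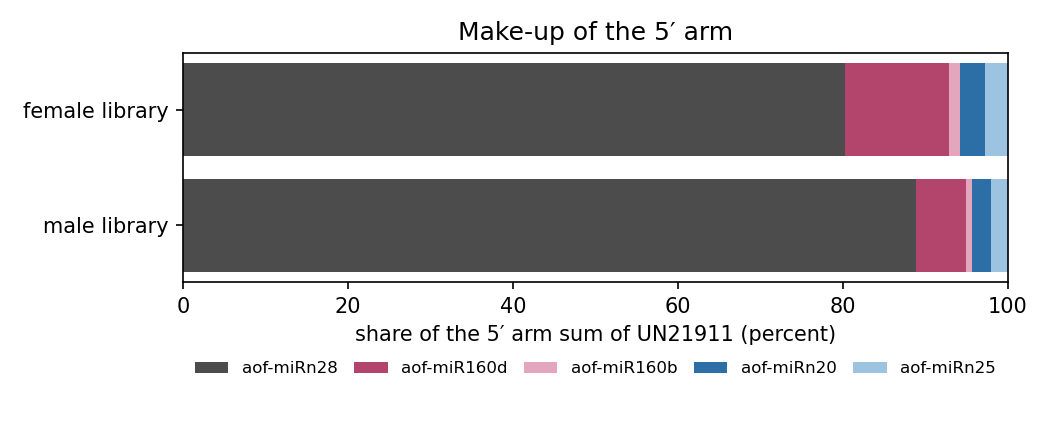
Share of each sequence in the summed value of the 5′ arm of UN21911, in percent, for the female and the male library. The dark part, aof-miRn28, is 80.3% and 88.9%, and the red part, aof-miR160d, is 12.6% and 6.10%.

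Within a library, aof-miRn28 stood at 6.37 times aof-miR160d in the female library (5.80 to 7.02) and at 14.6 times in the male library (13.02 to 16.3). Aof-miR160d stood at 9.63 and 8.58 times its shorter form aof-miR160b, and these intervals (7.23 to 13.1 and 6.12 to 12.3) overlap widely. The forms that differ at the 3′ end thus kept their proportion within counting error, as did aof-miRn20 and aof-miRn25, whereas aof-miRn28 and aof-miR160d did not. Aof-miR160a had 19.2% of the value of aof-miR160d on the female side and 16.6% on the male side. The 3′ arm sequence aof-miRn33 kept close to aof-miR160d, with 11.98% of its value in the female library (9.01 to 15.7%) and 11.3% in the male library (7.85 to 15.98%). Against aof-miRn20, the strand with which it forms 2-nt overhangs, aof-miRn33 stood at 0.5 times in the female library (0.36 to 0.687) and 0.313 times in the male library (0.211 to 0.457), and these intervals overlap.

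By first base, the 4 sequences with a 5′ U had a summed log2 ratio of 1.18, the pair with a 5′ C 0.56 and the pair with a 5′ G, aof-miRn28 and aof-miR160c, -0.02, although the members of that last pair lie at -0.03 and 2.87. Over the whole table the 125 sequences with a 5′ U had a median log2 ratio of 0.17, near the median of 0.18 of all listed miRNAs. The table-wide median was 0.63 for 21 sequences with a 5′ G and -0.11 for 30 with a 5′ C. Sums and medians are different measures, so the sums above cannot be set against these medians. The medians of the same sequences were 1.42 for the pair with a 5′ G, 1.20 for 5′ U and 0.56 for 5′ C. Their order is that of the table-wide medians for these bases. The sum for 5′ G comes last because aof-miRn28 holds most of it, with 730.06 of 735.78 TPM in the female library.

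Other miRNAs in the table also occur with shifted 5′ ends. Pairs were taken in which an identical stretch of at least 16 nt begins 1 to 3 nt further in. Among the 8 sequences there were 8 such pairs, with a median difference in log2 ratio of 0.60. The other listed miRNAs gave 168 pairs with a median difference of 0.49. The log2 ratios of aof-miRn28 and aof-miR160d differed by 1.19, which 14 of these 168 pairs (8.33%) reached. Only 10 of the 168 had both sequences at 50 TPM or more in at least 1 library, and 1 of those 10 reached it. Many pairs share a sequence, so these counts are a description.

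The families miR160, miR167, miR390 and miR393, whose Arabidopsis targets act in auxin signalling, hold 16 listed sequences. Of these, 14 were higher in the female library by any amount, against 57.7% of all listed miRNAs. Of the 16, 8 were over 2-fold higher on the female side and 0 on the male side, against the 18.0% and 12.9% of all listed miRNAs. The miR160 family itself gave 3 of these 8. Among the 8, aof-miR160c, aof-miR167b, aof-miR390c and aof-miR393a were listed through their female value alone, as their male values lie under 5.02 TPM. The families were chosen with earlier results of these data known, so these counts are a description and no support for a shared direction. The median log2 ratio of the 16 was 1.08. In the miR390 family, which sets off tasiRNAs that target ARF mRNAs, both sequences were over 2-fold higher, and aof-miR390a stood at 333 against 94.9 TPM. In the miR393 family, which targets auxin receptors, 2 of 3 were so, and aof-miR393b had 37.95 and 9.1 TPM. The miR167 family, which targets auxin response factors of another group, had 1 of 7 over 2-fold higher, and its most abundant sequence, aof-miR167h, had 1431 and 1116 TPM. The study also lists aof-miR167g as higher in the female library, a sequence that is not among the 7 counted here. Among families of at least 2 sequences, the summed log2 ratio lay closest to that of miR160 for miR171 (1.12), miR393 (1.45) and miR827 (0.68). This likeness rests on 2 libraries only.

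In the deposited target table, which scores pairing between miRNAs and unigenes, 3 of the 8 sequences had a row. These were aof-miR160a with 1 unigene, aof-miR160c with 5 and aof-miRn33 with 2. Aof-miR160b, aof-miR160d, aof-miRn20, aof-miRn25 and aof-miRn28 had none. All 8 rows lie on the minus strand of the unigene as assembled, as do 41.3% of all 463 rows. No unigene of these rows is annotated as an auxin response factor. The table does hold 5 rows with that annotation, all of them for miR167 sequences. The study itself reports cleavage of auxin response factor mRNAs by aof-miR160d, mapped on targets predicted from an RNA-seq unigene database. Their absence from the deposited table is therefore no evidence that asparagus miR160 lacks such targets.

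The target sites are printed 5′ to 3′ with unpaired and G:U bases in capitals. Of the 5 sites of aof-miR160c, the one that a pair of unigenes has in common is shown.
aof-miR160a on UN21911: uggcauacagggaAccaggca
aof-miRn33 on UN08446 and UN09170: ugcuugaCGccaugcacgUca
aof-miR160c on UN09374 and UN09389: uauAUuuggcucUucgcaGgc
The row of aof-miR160a, with a score of 1, is the closest match of the 8, if the score is read as a penalty. Its site, bases 247 to 267, is the minus strand of the very stretch that holds aof-miR160d, and its only mismatch is at base 8 of the miRNA. This site is therefore the complement of the hairpin itself. The table holds no row with a score of 0, the score that an exact match such as that of aof-miR160d to the same strand would have if a mismatch counts 1 and a G:U pair 0.5. That sum gives the listed score in all 8 rows and in 82.5% of the rows of the table.

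Aof-miRn33 was matched with a score of 2.5 to UN08446, at bases 45 to 65, and to UN09170, at bases 59 to 79. Both are annotated as Rieske iron-sulphur proteins, and UN09170 as that of the cytochrome b6-f complex, which carries electrons between the photosystems in the chloroplast. Their sites are identical, with mismatches at bases 13 and 14 of the miRNA and pairing at bases 10 and 11, between which plant miRNAs usually cut. The 5 unigenes of aof-miR160c (UN13836, UN09374, UN07540, UN09389 and UN21907) all had a score of 3, the highest in the table and that of 39.96% of its rows. None of them has an annotation of known function, and UN09374, UN07540 and UN09389 have sites that differ at 1 base at most. The orientation of the unigenes relative to their mRNAs was not tested.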

How the data were processed

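Small RNAs of 1 female and 1 male pool were sequenced with Illumina HiSeq. After trimming, the authors discarded reads of poor quality, very short reads and those of rRNA, tRNA, snRNA and snoRNA, and deposited RPM values (their TPM) for sequences between 20 and 24 nt. All listed sequences reach 5.02 TPM or more in a library, as a minimum was applied. Conserved miRNAs were matched to miRBase with bowtie, and candidates were found with Mireap on asparagus unigenes. The scores in the deposited target table were read as pairing penalties. The study names psRNATarget for prediction and CleaveLand for degradome reads, but which of them made this table is not given in the sources used here.

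Female values were divided by male values with no pseudocount. The methods name Fisher's exact and chi-square tests on reads, which were not run, as 1 library per sex is no replicate of a sex. The step of the values up to 60 TPM was searched with a tolerance of 0.0051 TPM. By this step 99.4% of the low values were whole in each library, which, should a step stand for a single read, implies totals of 4373625 female and 6374800 male reads. These inferred totals differ from the final clean reads that the study states for both libraries. Intervals are exact (Clopper-Pearson for shares, conditional binomial for ratios, Poisson in the plot of values). Precision is lowest for rare sequences, as 10 TPM is 43.7 female and 63.7 male reads on that reading.

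Hairpins were read from the supplementary tables (sequences only), placed in UN21911 through the deposited target row, and folded with RNAfold 2.7.2. Target rows were joined by the miRNA ID of the deposited table, where the ID miR160 belongs to aof-miR390c. All 8 sequences are named, together with the most abundant sequence of each auxin family and the 3 families nearest to miR160 in ratio. The sequences, lists and tests were chosen with earlier results of these data known. Alternatives were pseudocounts of 1 and 5 TPM, a scale set by the median ratio or the sums, minimum values, other fold thresholds, other memberships and stricter scores. The steps were tested on simulated data. Python 3.11.15, numpy 2.4.6, pandas 2.3.3, scipy 1.17.1 and matplotlib 3.10.9 were used.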

Additional observations from a re-analysis of the deposited data

How the results depend on the processing

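No paired analysis was possible because each sex has 1 library, and no library could be left out. With 5 TPM added to both values, 2 of the 8 sequences remained over 2-fold apart in place of 4, and 4 of the 16 auxin family sequences in place of 8 (this last setting was chosen after seeing the data). At a 3-fold threshold 1 was left. With the 3 candidates of its arm the summed log2 ratio of miR160 was 0.15 in place of 1.22. The summed log2 ratio of the 5′ arm of UN21911 changed from 0.12 to -0.058 with the median ratio and to -0.041 with the sums as the scale. With scores of at most 2.5, 3 target unigenes were left in place of 8. Of 32 single ratios under pseudocounts and scalings, 29 stayed within their counting intervals. The exceptions were aof-miR160c (0.89 with 5 TPM added) and aof-miRn28 (-0.21 and -0.19 after rescaling by the median and the sums). A rescaling shifts all log2 ratios by the same amount, so the wide intervals of rare sequences contain it more easily. The count of 29 is therefore no measure of robustness. Rescaled by the median ratio, aof-miR160d was under 2-fold (0.99 on the log2 scale) and 3 sequences were over it. The share of all listed miRNAs over the threshold was not computed under these changed settings. Whether the named sequences lost more calls than the rest is therefore not known.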

Other observations

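Aof-miRn25* is listed for UN21911 without a miRNA ID of its own and was kept apart from the 8 sequences. Its values were 5.11 TPM (female) and 2.56 TPM (male). It was the only sequence whose low values, in both libraries, were not whole multiples of the step, at 22.3 and 16.3 steps, while all others up to 60 TPM were whole within the tolerance. How its values were made is not given in the sources used here, and the reason was not tested.

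Its sequence carries U13C against the hairpin, and it shares 17 of 21 bases with aof-miR160c. No single-substitution variant of aof-miRn28 was listed, and aof-miR160a was the only one listed for aof-miR160d. The methods sought candidates by perfect matches to the unigenes, but allowed mismatches to miRBase for conserved miRNAs. The listing rules thus differ between these sequences, and no conclusion is drawn from the absence for aof-miRn28. The 4 candidates of the hairpin held 51.8% of the summed value of the 40 candidate entries in the female and 50.5% in the male library.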
